A study of Mus musculus with 61 samples.

Results

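The cytosolic ribosomal protein genes of the mouse are described here in nuclei sorted from the nucleus accumbens, a reward region at the base of the striatum. The members are the protein-coding genes whose symbols follow the pattern of Rpl or Rps with a number, together with Rplp0, Rplp1, Rplp2 and Rpsa, and without the Rps6k kinases. This gave 83 of the 55401 genes in the count table: 46 proteins of the large subunit, 30 of the small subunit and 7 paralogues with their own symbols (Rpl3l, Rpl7l1, Rpl10l, Rpl22l1, Rpl36al, Rpl39l and Rps27l). All 83 passed the filter on low counts. Fau, Rack1 and Rps3a1 are among the genes that encode ribosomal or ribosome-bound proteins under other names and are treated separately.

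The animals were male mice with 2 alleles: a Cre driver, D1-Cre or D2-Cre, and LSL-eGFP::L10a, a green fluorescent protein fused to the ribosomal protein L10a that Cre switches on. They received repeated injections of morphine, an opioid, or saline, spent 30 days in withdrawal, and were killed 1 h after a last injection, the challenge, of morphine or saline. The series text gives daily injections over 15 days, but under the name of a cohort of another drug, and this schedule is taken here for the morphine mice. The first letter of a group gives the repeated treatment and the second the challenge. D2 nuclei gave 7 MM, 8 MS, 7 SM and 7 SS libraries, and D1 nuclei gave 7 MM, 9 MS, 8 SM and 8 SS libraries. Every group, SS included, carried the tagged L10a, and SS mice received saline at both times. A nucleus enters a library through its green fluorescence, so that the cell type is that of the Cre driver. The sources used here do not say whether a library is 1 mouse or a pool, nor which dose each mouse received, and p values measure the spread between libraries only.

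A ribosome joins a small subunit, which reads the messenger RNA, to a large subunit, which joins amino acids. Each of its proteins is made in step with the others, and the messenger RNAs of ribosomal proteins in vertebrates begin with a short run of pyrimidines (C and T), the TOP sequence, through which the kinase mTOR and the protein Larp1 set how well they are translated. Many of these genes also carry small nucleolar RNAs (snoRNAs, guides for the modification of ribosomal RNA) in their introns, and have processed pseudogenes, copies of the messenger RNA inserted elsewhere in the genome. A neuron's mature messenger RNA is mostly in its cytoplasm, whereas nuclei hold new and unexported transcripts.

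Start regions are printed because the pyrimidine run is what these genes are known to share there. RefSeq promoters (build GRCm38.p6) matched 63 of the 83 members. Each line gives 30 bases before the RefSeq start and 25 bases from it, on the strand of the gene, and capitals mark CTTTC. The first 3 hold CTTTC near the start, and Rps6 and the 4 genes with the highest level per kb follow.
Rpl28: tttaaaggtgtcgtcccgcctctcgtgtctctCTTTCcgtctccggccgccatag
Rpl38: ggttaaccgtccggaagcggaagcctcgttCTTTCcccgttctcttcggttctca
Rpl35: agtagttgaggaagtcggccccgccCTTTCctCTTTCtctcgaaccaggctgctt
Rps6: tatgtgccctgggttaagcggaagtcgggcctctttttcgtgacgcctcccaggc
Rpl10a: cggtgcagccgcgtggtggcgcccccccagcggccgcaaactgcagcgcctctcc
Rps3: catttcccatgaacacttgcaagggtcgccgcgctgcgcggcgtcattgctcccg
Rpl41: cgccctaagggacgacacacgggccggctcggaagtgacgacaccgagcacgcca
Rpsa: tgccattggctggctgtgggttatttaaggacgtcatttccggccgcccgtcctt

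The windows lie at chr7:4792935-4792989 on the plus strand for Rpl28, chr11:114668550-114668604 on the plus strand for Rpl38 and chr2:39005107-39005161 on the minus strand for Rpl35. Those of the other 5 genes lie at chr4:86857343-86857397 on the minus strand for Rps6, chr17:28328441-28328495 on the plus strand for Rpl10a, chr7:99483685-99483739 on the minus strand for Rps3, chr10:128549144-128549198 on the minus strand for Rpl41, and chr9:120127736-120127790 on the plus strand for Rpsa. CTTTC on the gene's strand, from 10 bases before to 50 bases after the start, was found in 26 of 63 members (41.3%), against 7.26% of the 27025 RefSeq promoters with the same window. On the other strand of this window the letters were found in 7.94% of members, against 7.61% of promoters. CCGGAAG, searched on both strands from 250 bases before to 50 after the start, was found in 38.1% of members, against 9.16% of promoters. These motifs were chosen after the counts of several had been seen, and a match is a string of letters, not a measured site. Rpsa has its CTTTC beyond the printed window. The 26 members with CTTTC had a median level of 1.62 CPM (counts per 1e6 library counts) per kb, and the 37 without had 1.35 CPM per kb.

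Library totals were 11518606 to 26108954 counts, with a median of 17924400. Drd2, the dopamine receptor gene that names D2 neurons, had 296 to 2401 TMM-scaled CPM (scaled so that most genes have like levels in all libraries) in D2 libraries, against 48.0 to 270 in D1 libraries. Drd1 had 5.36 to 27.3 TMM-scaled CPM in D2 libraries, against 25.3 to 270 in D1 libraries, so that the labelled cell types went with their receptor genes. Replicate 1 of D1 SS stood apart: its TMM factor was 0.388, the density of its counts over 1464 olfactory and vomeronasal receptor genes was 0.057 CPM per kb, against 0.253 to 0.660 in the other libraries, and Slc17a7, a gene of cortical glutamatergic neurons, had 362 TMM-scaled CPM. That receptor density is used below as a background, since receptors of nasal sensory neurons have no known use in striatal neurons.

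The 83 members together held 0.0386 to 0.0893% of a library's counts. Levels of different genes are compared per kb of gene span, introns included, in CPM before TMM scaling. The median member had 1.45 CPM per kb as a mean over the 61 libraries, and single members ran over a range of 0.461 to 4.96 CPM per kb. Background density averaged 0.470 ± 0.107 CPM per kb (SD, n = 61), and 71 of 83 members (85.5%) averaged at least 2 times the background of their library, against 32.1% of the 42870 genes tested over both cell types. Ribosomal protein genes were thus above background in these nuclei for the most part, but by small multiples: a member's median over libraries was 2.96 times background for the middle member. The 78 genes of the mitochondrial ribosome had a median of 0.929 CPM per kb, with 69.2% of them at 2 times background or more.

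**Figure D1:**
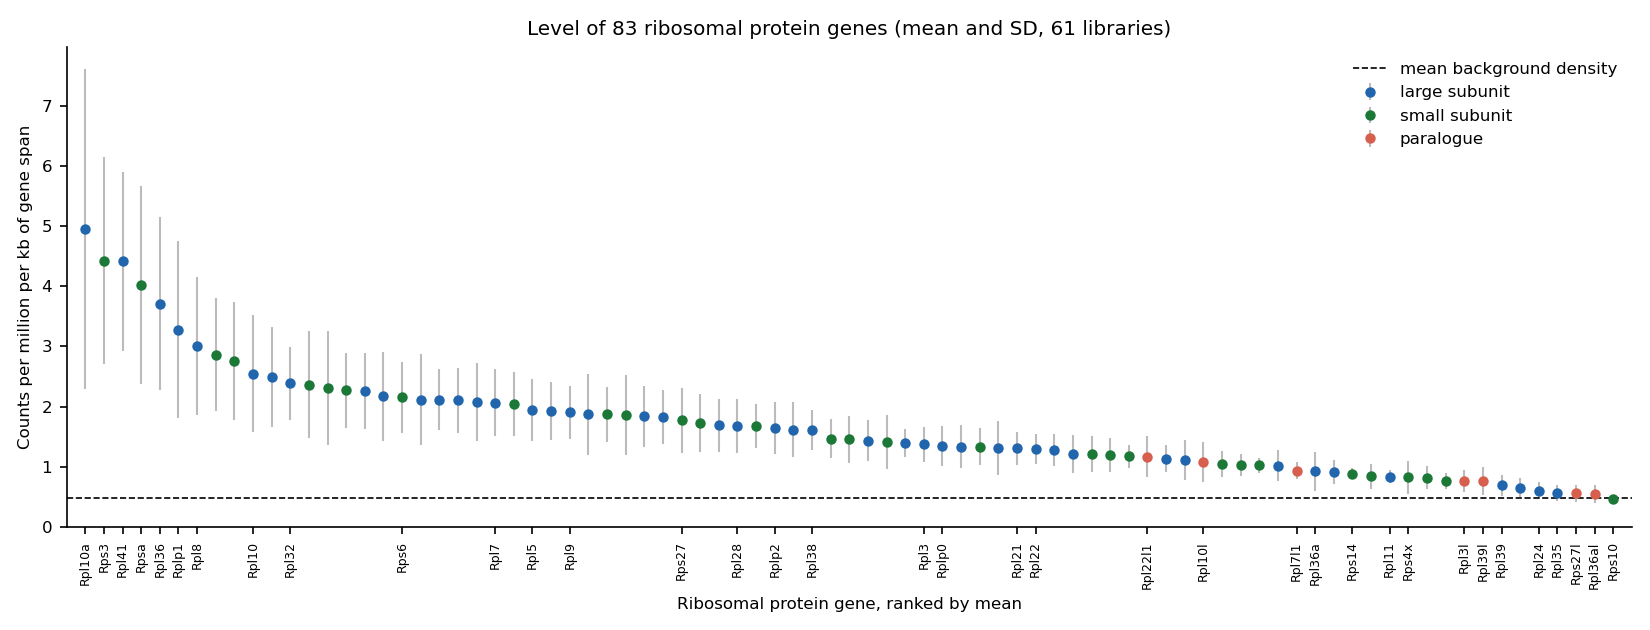
Mean level of each of the 83 genes in CPM per kb of gene span, ranked along the x axis with some of the genes named, with bars of 1 SD over 61 libraries, colours for subunit and paralogue, and a dashed line at the mean background density of 0.470 CPM per kb. Rpl10a, Rps3, Rpl41 and Rpsa are highest, at 4.03 to 4.96 CPM per kb, and Rps10 lies on the background line at 0.461 CPM per kb.

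Rpl10a, which encodes the protein fused to the fluorescent tag, had the highest mean level per kb. It averaged 4.96 ± 2.67 CPM per kb (SD, n = 61), and ranked first among the members in 26 of 61 libraries. Its level was 1.16 to 8.46 times the median of the other members of the same library, with a median of 3.17 times. The gene (ENSMUSG00000037805.15, chr17:28328471-28331033, plus strand, mm10) has exons over 94.8% of its span, holds no snoRNA and overlaps an annotated gene on the other strand. Reads from the tagged transgene and from the gene itself cannot be told apart in a count per gene, and whether transgene reads were counted here was not tested.

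Rps3, a small subunit protein at the entry of the messenger RNA, averaged 4.43 ± 1.73 CPM per kb (SD, n = 61). It hosts Snord15a and Snord15b, and Snord15b alone had a median of 249 counts per library under its own identifier, beside a mean of 477 counts for Rps3. Rpl41, the shortest protein of the ribosome, averaged 4.42 ± 1.49 CPM per kb (SD, n = 61) and hosts no snoRNA. Rpsa, a small subunit protein also known as the laminin receptor, averaged 4.03 ± 1.65 CPM per kb (SD, n = 61) and hosts 3 snoRNAs. Rpl36 followed with 3.71 ± 1.44 CPM per kb and Rplp1, an acidic protein of the large subunit's stalk, with 3.28 ± 1.48 CPM per kb (SD, n = 61 each).

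At the low end, Rps10 averaged 0.461 ± 0.0719 CPM per kb (SD, n = 61), which was 1.12 times background on average, and it overlaps the readthrough gene RPS10-NUDT3 on its own strand. Rpl36al had 0.546 ± 0.146 CPM per kb, Rps27l 0.555 ± 0.140, Rpl35 0.562 ± 0.131 and Rpl24 0.600 ± 0.137 (SD, n = 61 each). These neighbours in the order lie within 1 SD of each other. Few counts lay behind these levels, with a mean of 13.7 counts per library for Rpl36al and 53.4 for Rps10. Like Rps10, Rpl36al and Rpl24 overlap an annotated gene on their own strand. The 6 members with such an overlap had a median of 0.857 CPM per kb, and 3 of them reached 2 times background. How reads in such overlaps were counted is not given in the sources used here.

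Per kb of gene span, the 2 subunits had close median levels, and the paralogues had a lower one. The large subunit's 46 genes had a median of 1.66 CPM per kb, the small subunit's 30 genes 1.46 and the 7 paralogues 0.759. At least 2 times background was reached by 41 of 46, 27 of 30 and 3 of 7 of these genes. Rpl3l, known as the muscle form of Rpl3, had 0.759 ± 0.185 CPM per kb, against 1.37 ± 0.285 for Rpl3 (SD, n = 61 each). Rpl10l, a testis gene that stands in for the X-linked Rpl10, had 1.07 ± 0.336 CPM per kb, against 2.55 ± 0.974 for Rpl10 (SD, n = 61 each). Rpl22l1 and Rpl22 were close to each other, at 1.17 ± 0.337 and 1.29 ± 0.245 CPM per kb, and so were Rpl39l and Rpl39, at 0.758 ± 0.227 and 0.690 ± 0.176 CPM per kb (SD, n = 61 each). Rps27l had 0.555 ± 0.140 CPM per kb, against 1.77 ± 0.539 for Rps27 (SD, n = 61 each). Rpl7l1 had 0.931 ± 0.141 CPM per kb, against 2.07 ± 0.558 for Rpl7, and Rpl36al had 0.546 ± 0.146, against 0.921 ± 0.325 for Rpl36a (SD, n = 61 each). Several of these levels are close to background. The median over libraries was 1.58 times background for Rpl39l, 1.45 for Rpl39 and 1.56 for Rpl3l. Rpl39l had at most 2.16 times background in any library, and Rpl3l at most 2.73. Counts not divided by span differed less for some pairs. Rps27l and Rps27 had means of 34.8 and 37.2 counts per library, with exons over 23.8% and 92.3% of their spans. Mean counts were 152 for Rpl7l1 and 128 for Rpl7, and 64.6 for Rpl39l and 36.6 for Rpl39. Rpl3l, Rpl10l, Rpl22l1 and Rpl36al had lower mean counts than their parents. The part of span and introns in the differences per kb was not tested.

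The 29 members with a snoRNA inside had a median of 1.72 CPM per kb, against 1.34 for the 54 without one. How reads that fall in a snoRNA were assigned is not stated. Pseudogene copies, counted as annotated pseudogenes at 95% identity or more over at least 80% of the coding sequence, were found for all but 8 members, with up to 56 copies for Rpl21. The 41 members with 5 or more copies had a median of 1.45 CPM per kb, and the 42 with fewer had 1.44. Reads shared with such copies make single values uncertain, since the counting of reads with several matches is not described. The 4 members on the X chromosome (Rpl10, Rpl36a, Rpl39 and Rps4x) had a median of 0.869 CPM per kb, against 1.47 for the 79 on autosomes.

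Across the 8 groups, the mean of log2(TMM-scaled CPM + 0.5) over the 83 members was taken as 1 value per library. In D2 nuclei it averaged 2.37 ± 0.250 in MM (n = 7), 2.56 ± 0.259 in MS (n = 8), 2.33 ± 0.284 in SM (n = 7) and 2.20 ± 0.163 in SS (n = 7), each with its SD. In D1 nuclei it averaged 2.79 ± 0.394 in MM (n = 7), 2.48 ± 0.439 in MS (n = 9), 2.50 ± 0.371 in SM (n = 8) and 2.57 ± 0.527 in SS (n = 8), each with its SD. The libraries of all groups overlapped. Before TMM scaling, the D2 means were 2.365 ± 0.145 in MM, 2.507 ± 0.161 in MS, 2.417 ± 0.230 in SM and 2.298 ± 0.120 in SS (SD). The D1 means were then 2.728 ± 0.274 in MM, 2.509 ± 0.364 in MS, 2.513 ± 0.259 in SM and 2.46 ± 0.107 in SS (SD). The order of D2 MM and SM, and that of D1 SS against MS and SM, thus depended on the scaling. On TMM-scaled CPM, 49 of the 83 members had their highest group median in D1 MM and 16 in D2 MS, and 49 had their lowest in D2 SS and 16 in D2 SM. Fewer cells and less RNA per cell cannot be told apart in such bulk libraries.

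**Figure D2:**
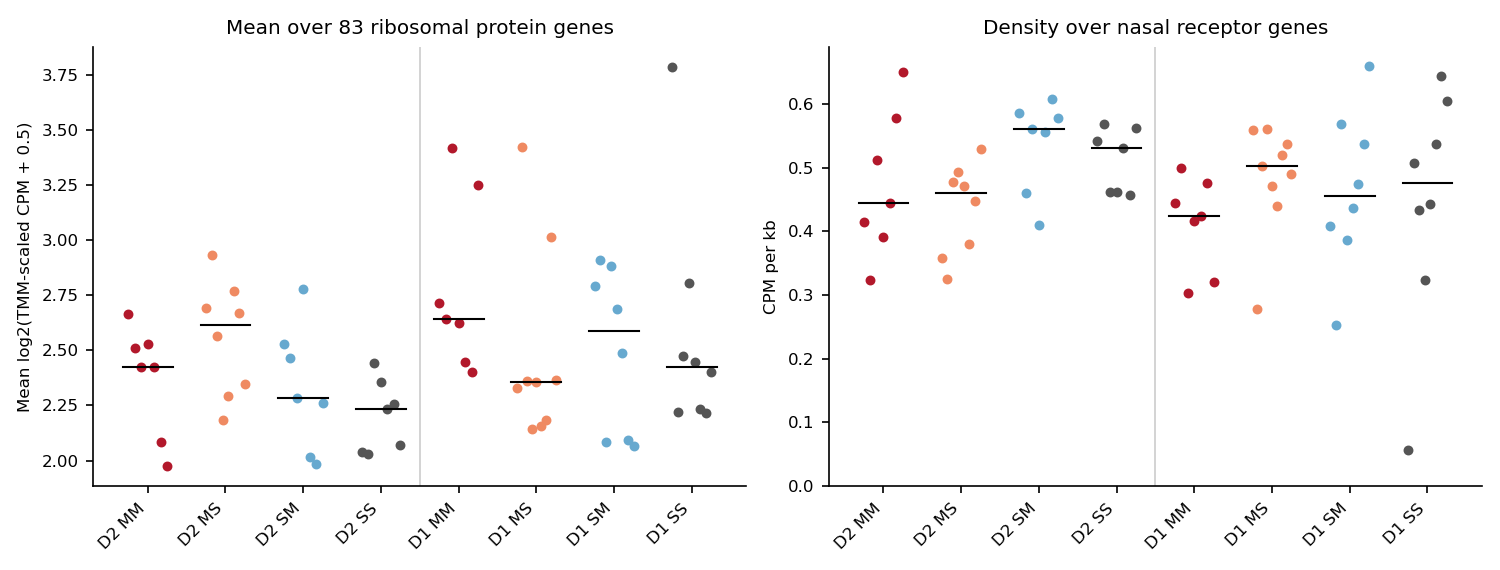
Left, the mean log2(TMM-scaled CPM + 0.5) over the 83 genes in each library, and right, the density over nasal receptor genes in CPM per kb, by group, with a bar at the group median. D2 MS libraries lie at 2.19 to 2.93 and D2 SS libraries at 2.03 to 2.44, while receptor density is 0.325 to 0.530 in D2 MS and 0.458 to 0.569 in D2 SS, and replicate 1 of D1 SS is the highest point on the left and the lowest on the right.

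No member passed an adjusted p of 0.05 in any of the 15 comparisons with edgeR's quasi-likelihood test (Benjamini-Hochberg adjustment over all genes tested). In all 6 D1 comparisons, all 6 D2 comparisons and the comparison of the D1 and D2 responses, no gene at all passed (0.0% of genes called). In D2 against D1, 0 of 83 members were called, against 0.0467% of all genes in SS and 0.301% of all genes over the mean of the 4 treatments. Unadjusted p values under 0.05 are therefore given below as a description, beside their share among all genes tested. Nor was there a member whose libraries in 1 group all lay above or all below those of the other, in any comparison of 2 groups or of the 2 cell types. Among all genes tested, such separation was as rare as 0.00243% in D1 SM, MS or MM against SS, 0.00974% in D1 MM against SM and 0.017% in MM against MS in both cell types. It reached 0.0511%, 0.221% and 0.374% in D2 SM, MS and MM against SS, 0.0681% in D2 MM against SM, 0.107% in D2 against D1 within SS and 0.021% over all treatments.

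Repeated morphine followed by a saline challenge, set against saline throughout, asks what a morphine history leaves after withdrawal. In D2 nuclei this contrast (MS against SS) had the member median farthest from 0 among the 5 comparisons of 2 D2 groups: 79 of 83 members had a fold change above 0, with a median log2 fold change of 0.39, against -0.05 for all 41125 genes tested, of which 42.2% were above 0. An unadjusted p under 0.05 was reached by 60 of 83 members, 59 higher and 1 lower, against 32% of all genes (18.6% higher and 13.4% lower). The smallest adjusted p of a member was 0.0713 (edgeR), which was also the smallest of any gene. All 46 large subunit genes (median log2 fold change 0.43) and all 30 small subunit genes (0.39) were above 0, and 3 of 7 paralogues (-0.04).

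Rpl8, a large subunit protein near the site of peptide bond formation, had the smallest p of the members. Its lowest, median and highest TMM-scaled CPM were 5.05, 7.14 and 10.1 in D2 MS libraries, against 3.54, 4.54 and 5.48 in D2 SS libraries. Of 8 MS libraries, 7 lay above every SS library, and 1 overlapped. Its log2 fold change was 0.615 ± 0.14 (SE, edgeR adjusted p = 0.0713).

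Rpl9, a large subunit protein, had 4.30, 6.72 and 8.39 TMM-scaled CPM as its lowest, median and highest in D2 MS, against 3.06, 4.28 and 5.65 in D2 SS, with 6 of 8 MS libraries above every SS library. Rpl9's log2 fold change was 0.555 ± 0.14 (SE, edgeR adjusted p = 0.0713). Rpl24 (0.50 ± 0.13) and Rpl36 (0.69 ± 0.18) were also among the 5 members with the smallest p in this contrast, with log2 fold changes and SE given and the same adjusted p of 0.0713 from edgeR.

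Rpl10a had the largest fold change of the members in this contrast. It had 5.95, 15.4 and 33.2 TMM-scaled CPM as lowest, median and highest in D2 MS libraries, against 5.08, 5.91 and 11.8 in D2 SS libraries. The MS libraries were the more widely spread, 5 of 8 lay above all SS libraries and 4 of 7 SS libraries lay below all MS libraries. On the log2 scale the fold change was 1.09 ± 0.34 (SE, edgeR adjusted p = 0.0713). L10a is also the protein of the sorting tag, and D2 marker genes stood beside it: all 5 D2 markers found in the file (Drd2 among them) were higher at an unadjusted p under 0.05, with a median log2 fold change of 0.84, and their summed level had a median of 1370 TMM-scaled CPM in D2 MS (804 to 2920), against 816 in D2 SS (616 to 1290).

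Rps6, the small subunit protein that S6 kinases phosphorylate, had 4.36, 5.87 and 8.88 TMM-scaled CPM as lowest, median and highest in D2 MS, against 2.79, 4.21 and 5.48 in D2 SS, and 4 of 8 MS libraries lay above all SS libraries. For Rps6 the log2 fold change was 0.52 ± 0.155 (SE, edgeR adjusted p = 0.0713). Rpl5, which together with Rpl11 holds back the p53 regulator Mdm2 when ribosome assembly is disturbed, had a log2 fold change of 0.52 ± 0.15 (SE, edgeR adjusted p = 0.0713). Rpl11 itself had 0.03 ± 0.06 and Rps14 had 0.03 ± 0.06, the narrowest SE of the members named (edgeR adjusted p = 0.735 and 0.750). Both have long spans, and only a small multiple of background, with medians of 1.75 times for Rpl11 and 1.90 times for Rps14.

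In D2 MS against SS most paralogues had fold changes near or below 0 where their parents were above 0. Rpl3l had a log2 fold change of -0.28 ± 0.12 while Rpl3 had 0.33 ± 0.11 (SE, edgeR adjusted p = 0.112 and 0.0713). For Rpl10l the value was -0.05 ± 0.195 and for Rpl10 it was 0.70 ± 0.22 (SE, edgeR adjusted p = 0.884 and 0.0713). Rps27l had -0.04 ± 0.16, Rpl36al 0.04 ± 0.19 and Rpl39l -0.08 ± 0.14, while Rps27 had 0.52 ± 0.19, Rpl36a 0.54 ± 0.19 and Rpl39 0.14 ± 0.18 (log2 fold changes and SE). Rpl22l1 differed from these in having 0.35 ± 0.15 beside 0.30 ± 0.14 for Rpl22 (SE, edgeR adjusted p = 0.116 and 0.128), and Rpl7l1 had 0.20 ± 0.13 beside 0.41 ± 0.15 for Rpl7 (SE, edgeR adjusted p = 0.287 and 0.0734). The difference between a parent and its paralogue was not tested. Most of these paralogues lay near background. Their medians over libraries were 1.03 times background for Rpl36al, 1.19 for Rps27l, 1.56 for Rpl3l, 1.58 for Rpl39l and 2.38 for Rpl10l. Of the parents, Rpl39 was as low, at 1.45 times. The part of background in the paralogues' fold changes was not tested.

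**Figure D3:**
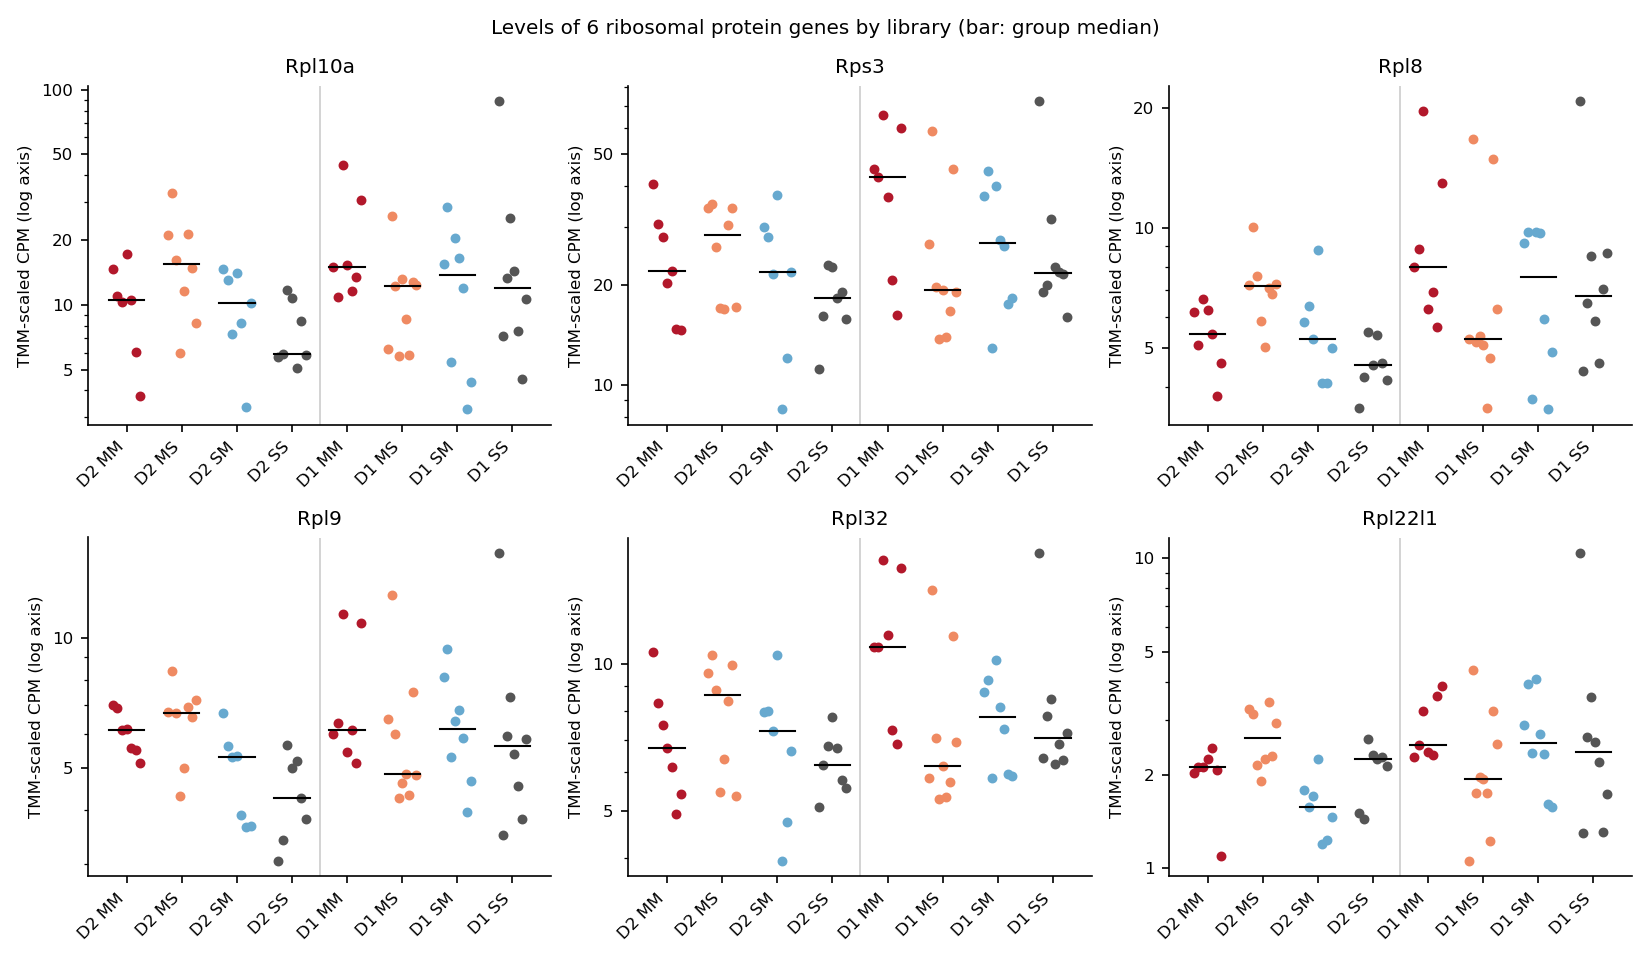
TMM-scaled CPM of Rpl10a, Rps3, Rpl8, Rpl9, Rpl32 and Rpl22l1 in every library on a log axis, by group, with a bar at the group median. In the Rpl8 panel 7 of 8 D2 MS libraries lie above all D2 SS libraries and in the Rpl9 panel 6 of 8 do, and in all 6 panels replicate 1 of D1 SS is far above the other D1 SS libraries.

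Background was lower on average in this contrast. Receptor density was 0.436 ± 0.0725 CPM per kb in D2 MS (SD, n = 8), against 0.512 ± 0.0499 in D2 SS (SD, n = 7). With log2 receptor density as a covariate, the median log2 fold change of the members was 0.19, and 25 of 83 had an unadjusted p under 0.05 (24 higher, 1 lower), against 13.7% of all genes. The 6 D1 neuron markers had a median log2 fold change of 0.36, with 3 of 6 under an unadjusted p of 0.05 and higher, and a summed level of 52.6 to 132 TMM-scaled CPM in D2 MS, against 46.0 to 68.7 in D2 SS. The lists of 6 markers each for cortical glutamatergic neurons, interneurons, oligodendrocytes, astrocytes, microglia and endothelial cells had medians of -0.183 to -0.065. Of the 6 endothelial markers 3 were lower at an unadjusted p under 0.05, with sums of 240 to 301 TMM-scaled CPM in D2 MS, against 290 to 313 in D2 SS. At such a p, 2 cortical, 2 astrocyte, 2 microglial and 1 oligodendrocyte markers were also lower, 1 microglial marker was higher, and no interneuron marker was either. No endothelial or microglial marker averaged 2 times background over the 61 libraries. The part of background and of these markers in the shift of the members was not tested. Receptor density is itself a share of a library's counts, so the covariate cannot separate background from the level of expressed genes. The count of calls differed with single libraries and with the tool. The count of members passing an adjusted p of 0.05 in edgeR was 44 (of 8511 genes) without replicate 4 of D2 MS, 23 (of 2759 genes) without replicate 5 and 35 (of 7565 genes) without replicate 8, and 0 without any 1 of the other D2 MS or SS libraries. With DESeq2 it was 38, when 27.2% of all genes with an adjusted p were called. The members' median was 0.331 to 0.440 in the fits without 1 library.

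Other genes of ribosome making and translation mostly had fold changes above 0 in D2 MS against SS, a contrast in which 32% of all genes had an unadjusted p under 0.05 (18.6% higher and 13.4% lower). Of 7 ribosomal or ribosome-bound genes under other names (Fau, Rack1, Rps3a1 and Naca among them), 7 were above 0, with a median log2 fold change of 0.34 and 6 at an unadjusted p under 0.05. Of 15 genes of translation elongation and initiation, 15 were above 0 (median 0.51, 13 with an unadjusted p under 0.05, all higher). Of 24 genes of ribosome assembly, 21 were above 0 (median 0.18, 12 with p under 0.05, all higher), and of 11 genes of RNA polymerase I, which transcribes ribosomal RNA, 10 were (median 0.14, 4 with p under 0.05, all higher). The 78 mitochondrial ribosomal genes had 74 above 0, with a median of 0.20 and 32 at an unadjusted p under 0.05, all higher. For 16 regulators around mTOR the median was 0.26, with 9 higher and 2 lower at an unadjusted p under 0.05. No gene of these lists passed the adjusted threshold in edgeR in this contrast.

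A morphine challenge after a saline history (SM against SS) gave a median log2 fold change of 0.16 in D2 nuclei, with 3 of 83 members at an unadjusted p under 0.05, against 3.24% of all genes (1.3% higher and 1.95% lower). Among them were the X-linked Rpl36a (0.50 ± 0.20), which was higher, and the paralogue Rpl22l1 (-0.385 ± 0.17), which was lower (log2 fold change and SE, edgeR adjusted p = 1.0 for each). Rpl22l1 had 1.19, 1.57 and 2.24 TMM-scaled CPM as lowest, median and highest in D2 SM, against 1.44, 2.25 and 2.61 in D2 SS, with 4 of 7 SS libraries above all SM libraries. With receptor density as a covariate, 22 members were higher in SM at an unadjusted p under 0.05 and 1 was lower, against 7.98% of all genes (3.47% higher and 4.51% lower), with a median of 0.19.

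Morphine at both times against saline at both (MM against SS) gave a median of 0.19 in D2 nuclei, with 71 of 83 members above 0 and 8 at an unadjusted p under 0.05, all higher, against 13.3% of all genes (5.39% higher). Rpl9 had the smallest p, with 5.14, 6.11 and 6.99 TMM-scaled CPM as lowest, median and highest in D2 MM, against 3.06, 4.28 and 5.65 in D2 SS. In 4 of 7 MM libraries Rpl9 lay above all SS libraries, and its log2 fold change was 0.46 ± 0.14 (SE, edgeR adjusted p = 0.361). Next in order of p were Rpl17 (0.37 ± 0.15), Rpl24 (0.32 ± 0.13), Rpl30 (0.58 ± 0.25) and Rps27 (0.45 ± 0.20), with edgeR adjusted p of 0.361 to 0.365. The share of members here lay near that of all genes. With receptor density as a covariate the median was 0.066, 56 members were above 0 and 1 had an unadjusted p under 0.05, which was higher, against 11.9% of all genes (4.5% higher).

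The challenge after a morphine history (MM against MS) had members on the other side of 0 in D2 nuclei. Only 3 of 83 members had a fold change above 0, the median log2 fold change was -0.20, and 13 members had an unadjusted p under 0.05, each of them lower, against 3.76% of all genes (2.51% lower). Rpl28, a large subunit protein with CTTTC at its start (printed above), had the smallest p. Its lowest, median and highest TMM-scaled CPM were 2.36, 3.19 and 3.64 in D2 MM, against 3.19, 4.19 and 5.88 in D2 MS, so that 6 of 8 MS libraries lay above every MM library. For Rpl28 the log2 fold change was -0.50 ± 0.15 (SE, edgeR adjusted p = 0.973). Rpl18 (-0.34 ± 0.12), Rpl8 (-0.39 ± 0.14) and Rpl21 (-0.35 ± 0.14) were also among the 5 members with the smallest p, each with an edgeR adjusted p of 0.973. The 5 D2 markers were all below 0 in this contrast as well, with a median of -0.41. Because MS libraries serve in both, this contrast and MS against SS are not independent.

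Set against SM, D2 MM had a median log2 fold change of 0.03, with 2 of 83 members under an unadjusted p of 0.05 (Rpl11 at -0.14 ± 0.06 and Rpl9 at 0.30 ± 0.14, log2 fold change and SE, edgeR adjusted p = 0.608 for both), against 7.73% of all genes (4.02% higher and 3.71% lower). Its median was -0.151 with receptor density as a covariate. The difference between the response to the challenge after morphine and that after saline had a median of -0.35 in D2 nuclei. It had an unadjusted p under 0.05 in 23 of 83 members, all lower, against 3.56% of all genes (1.71% lower). Rpl8 (-0.68 ± 0.20), Rps7 (-0.51 ± 0.18), Rpl36 (-0.70 ± 0.26) and Rpl41 (-0.71 ± 0.27, log2 scale and SE) were among the 5 members with the smallest p, each with an edgeR adjusted p of 0.991.

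**Figure D4:**
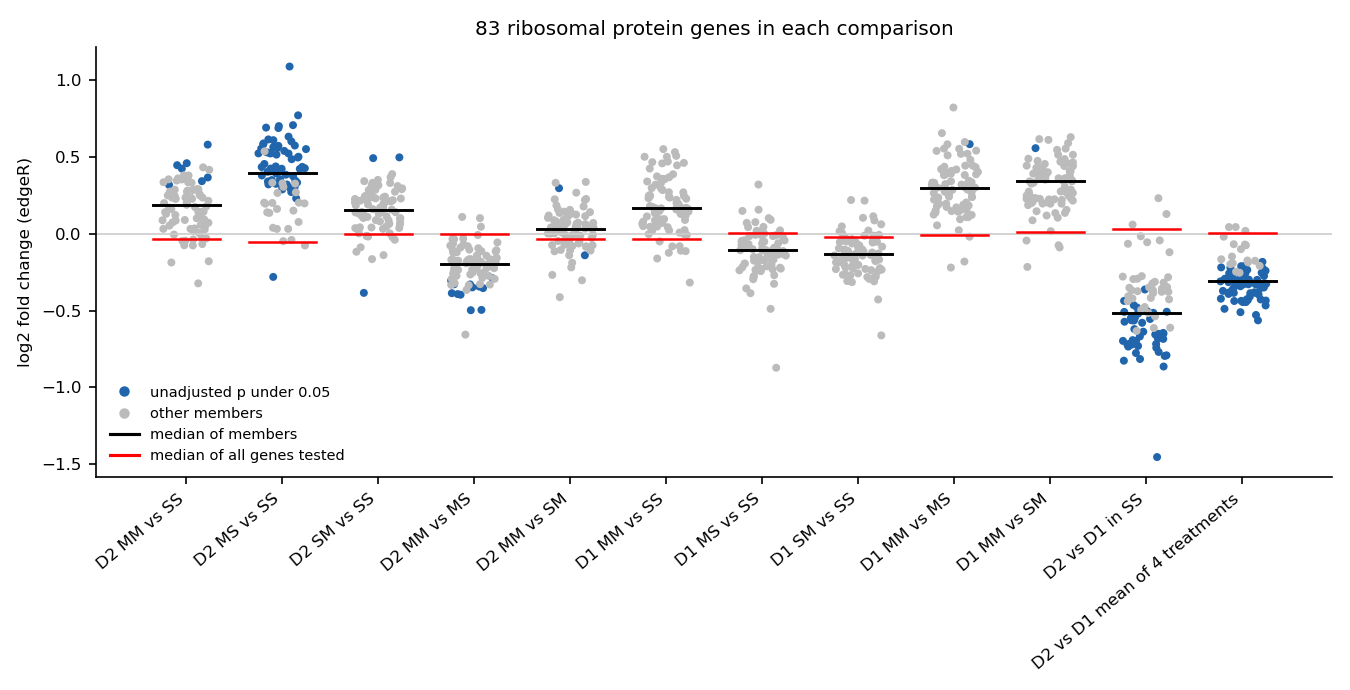
The log2 fold change of each of the 83 genes in 12 comparisons, with a black bar at the members' median, a red bar at the median of all genes tested and blue points at an unadjusted p under 0.05. The members' median is 0.39 in D2 MS against SS, -0.20 in D2 MM against MS and -0.305 in D2 against D1 over the 4 treatments, and no point passes the adjusted threshold.

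In D1 nuclei every contrast with SS turned on 1 library. With all libraries the median log2 fold change of the members was 0.17 in MM, -0.11 in MS and -0.13 in SM, each against SS, and 0 of 83 members reached an unadjusted p of 0.05 in these 3 contrasts, against 1.92%, 2.68% and 1.87% of all genes. Without replicate 1 of D1 SS the medians were 0.43 in MM, 0.167 in MS and 0.145 in SM, and in MS and SM still no member reached an unadjusted p of 0.05, against 1.1% and 1.28% of all genes. For MS and SM the sign therefore changed, and for MM, 28 of 83 members then had an unadjusted p under 0.05, all higher, against 5.68% of all genes (2.79% higher). No member passed the adjusted threshold without that library either, and the smallest adjusted p of a member in MM against SS was 0.665 (edgeR). With DESeq2's size factors in the same edgeR fit, the medians of MM, MS and SM against SS were 0.006, -0.282 and -0.286, and that of all genes in MM against SS was -0.106. For MM against SS, receptor density as a covariate gave a median of 0.315, with 28 members higher and 1 lower at an unadjusted p under 0.05, against 8.49% of all genes (6.52% higher and 1.97% lower).

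Rpl32, a large subunit protein whose gene hosts Snora7a, had the smallest p in D1 MM against SS with all libraries. It had 6.85, 10.9 and 16.4 TMM-scaled CPM as lowest, median and highest in D1 MM, against 6.24, 7.05 and 16.9 in D1 SS. The highest SS value was that of replicate 1, and the other SS libraries reached 8.46. With all libraries the log2 fold change was 0.47 ± 0.23 (SE, edgeR adjusted p = 1.0). Rps27l (-0.32 ± 0.16), Rpl36al (0.45 ± 0.245), Rps29 (0.46 ± 0.27) and Rpl23 (0.50 ± 0.30) followed in order of p, all at an edgeR adjusted p of 1.0. Rpl10a had 10.9, 15.0 and 44.8 TMM-scaled CPM in D1 MM, against 4.51, 12 and 88.2 in D1 SS, with a log2 fold change of -0.05 ± 0.51 (SE).

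For MS against SS in D1, the 5 members with the smallest p were Rpl10a (-0.87 ± 0.48), Rpl22l1 (-0.49 ± 0.32), Rpl36al (0.32 ± 0.24), Rpl27 (-0.24 ± 0.18) and Rpl22 (-0.36 ± 0.27), given as log2 fold changes and SE, at an edgeR adjusted p of 0.824. For SM against SS they included Rpl27 (-0.315 ± 0.18), Rps10 (-0.28 ± 0.18), Rpl3l (0.22 ± 0.15) and Rpl10a (-0.66 ± 0.49), at an edgeR adjusted p of 0.955. None of these had an unadjusted p under 0.05.

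In D1 contrasts that do not use SS libraries the members' medians were 0.309 in MM against MS and 0.340 in MM against SM without that library, which then enters only through the spread and the scaling. The count of members with an unadjusted p under 0.05 moved more: without it 6 were higher in MM against MS, against 4.92% of all genes (2.22% higher), and 6 in MM against SM, against 2.88% of all genes (1.45% higher). The challenge after a morphine history (MM against MS) had a median log2 fold change of 0.30, with 80 of 83 members above 0 and 1 of 83 at an unadjusted p under 0.05, against 2.29% of all genes (0.988% higher). That member was Rpl32, with 6.85, 10.9 and 16.4 TMM-scaled CPM as lowest, median and highest in D1 MM, against 5.29, 6.18 and 14.2 in D1 MS, and a log2 fold change of 0.58 ± 0.22 (SE, edgeR adjusted p = 0.988). Its groups overlapped, with 2 of 7 MM libraries above all MS libraries and 5 of 9 MS libraries below all MM libraries. Rpl5 (0.52 ± 0.26), Rps3 (0.66 ± 0.34) and Rpl17 (0.44 ± 0.24) came next, at an edgeR adjusted p of 0.988.

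Rps3 had 16.3, 42.5 and 65.5 TMM-scaled CPM as lowest, median and highest in D1 MM, against 13.8, 19.4 and 58.8 in D1 MS, and these groups overlapped. Against SM, D1 MM had a median log2 fold change of 0.34, again with Rpl32 (0.56 ± 0.23) as the 1 member at an unadjusted p under 0.05, against 1.34% of all genes (0.601% higher). Marker genes lay on the same side in MM against MS: all 5 D2 markers and all 6 D1 markers were above 0 in D1 nuclei, with medians of 0.48 and 0.26, and receptor density averaged 0.412 ± 0.0745 CPM per kb in D1 MM (SD, n = 7), against 0.484 ± 0.0869 in D1 MS (SD, n = 9). Cortical glutamatergic markers were above 0 in 5 of 6 cases (median 0.27, 1 higher at an unadjusted p under 0.05) and oligodendrocyte markers in 6 of 6 (median 0.11, 1 higher at such a p). The cortical list summed to 126 to 206 TMM-scaled CPM in D1 MM, against 119 to 150 in D1 MS, and the oligodendrocyte list to 176 to 254 in D1 MM, against 151 to 190 in D1 MS. Slc17a7, a vesicular glutamate transporter of cortical neurons, had 72.8 and 41.4 TMM-scaled CPM in the 2 highest D1 MM libraries, against at most 16.3 in D1 MS. Interneuron markers were above 0 in 3 of 6 cases (median 0.02, 1 higher at an unadjusted p under 0.05), and the medians of the astrocyte, microglial and endothelial lists were -0.01, 0.04 and -0.07. Over all libraries, 3 of 6 cortical, 2 of 6 interneuron, 1 of 6 oligodendrocyte and 1 of 6 astrocyte markers averaged 2 times background or more. All 6 D1 markers and 4 of 5 D2 markers did, so that the sums of the other lists hold more genes near background. The part of these markers in the members' shift was not tested. A covariate of receptor density gave a median of 0.168 in MM against MS, with 4 members higher at an unadjusted p under 0.05, against 5.01% of all genes (3.12% higher). In MM against SM it gave 0.230, with 8 members higher, against 3.79% of all genes (2.81% higher).

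For the difference between the 2 challenge responses in D1, the median was 0.45, with 2 of 83 members (Rpl10a at 1.485 ± 0.70 and Rpl32 at 0.675 ± 0.32, log2 scale and SE) at an unadjusted p under 0.05, against 2.32% of all genes (1.34% higher). The edgeR adjusted p was 0.782 for both. Without replicate 1 of D1 SS the median was 0.16 and 0 members had an unadjusted p under 0.05 in edgeR, against 1.53% of all genes. A covariate of receptor density gave a median of 0.056, again with 0 members, against 2.22% of all genes.

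Whether the response differed between the cell types was tested in a joint fit of 42870 genes. The difference of MM minus MS in D2 less that in D1 had a median of -0.51 on the log2 scale over the members, against 0.00 for all genes, with 79 of 83 below 0. An unadjusted p under 0.05 was found for 17 of 83 members, all lower, against 3.57% of all genes (1.76% lower), and none passed the adjusted threshold. Without replicate 1 of D1 SS, which enters only through the shared estimate of the spread and the scaling, the median was -0.503 and 29 members had such a p, against 7.7% of all genes (4.03% lower). Rpl32 (-0.78 ± 0.30), Rpl10a (-1.48 ± 0.63), Rpl28 (-0.75 ± 0.33) and Rpl21 (-0.67 ± 0.29) were among the 5 members with the smallest p, at an edgeR adjusted p of 0.878. This contrast asks whether the 2 responses differ, not whether their signs are opposite, and a difference is not shown for any single member at the adjusted threshold.

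Between the cell types, D2 nuclei had the lower values over the mean of the 4 treatments, though not in MS, where the members' mean level was 2.56 ± 0.26 log2 TMM-scaled CPM in D2 (SD, n = 8), against 2.48 ± 0.44 in D1 (SD, n = 9). Over that mean 80 of 83 members were below 0, with a median log2 fold change of -0.305 (D2 over D1), against 0.01 for all genes, and 65 members had an unadjusted p under 0.05, all lower, against 12.2% of all genes (9.88% lower). All 46 large subunit genes (median -0.32) and all 30 small subunit genes (-0.30) were below 0, as were 4 of 7 paralogues (-0.02). Without replicate 1 of D1 SS the median was -0.23 and 46 members had an unadjusted p under 0.05, all lower, against 6.81% of all genes (4.53% lower). With receptor density as a covariate the median was -0.13, and 29 members had such a p, all lower, against 5.98% of all genes (3.19% lower). With all libraries and no covariate, cortical glutamatergic markers lay on the same side, with 0 of 6 above 0 and a median of -0.24. Of these, 3 were lower at an unadjusted p under 0.05 and 1 passed the adjusted threshold in edgeR. Replicate 1 of D1 SS is among these libraries, with Slc17a7 at 362 TMM-scaled CPM, against at most 72.8 in any other library. The markers were not tested without it. Their part in the shift of the members was not tested.

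Rpl3, a large subunit protein close to the site of peptide bond formation, had the smallest p of the members in D2 against D1. Its lowest, median and highest TMM-scaled CPM in D2 were 14.5, 17.4 and 19.6 in MM, 15.3, 19.0 and 23.8 in MS, 11.8, 15.8 and 24.6 in SM and 12.3, 15.8 and 17.2 in SS. In D1 they were 17.5, 23.3 and 35 in MM, 15.1, 18.1 and 37.6 in MS, 13.2, 20.3 and 25.8 in SM and 14.8, 18.8 and 44.6 in SS. The cell types overlapped in each treatment, with 7 of 32 D1 libraries above every D2 library and 3 of 29 D2 libraries below every D1 library. Over the mean of the 4 treatments Rpl3 had a log2 fold change of -0.35 ± 0.09 (SE, edgeR adjusted p = 0.0791). Rps6 had -0.44 ± 0.11, with an edgeR adjusted p of 0.0818, and Rpl8 (-0.51 ± 0.14), Rps12 (-0.44 ± 0.13) and Rpl5 (-0.385 ± 0.12) followed with edgeR adjusted p of 0.161 to 0.247.

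Within SS alone the D2 over D1 median was -0.515, and 45 of 83 members had an unadjusted p under 0.05, all lower, against 27.9% of all genes (21.8% lower). Rpl10a (-1.455 ± 0.47), Rpl15 (-0.77 ± 0.25), Rps6 (-0.72 ± 0.23), Rps12 (-0.80 ± 0.26) and Rpl17 (-0.65 ± 0.22) had the smallest p, at an edgeR adjusted p of 0.0983. Without replicate 1 of D1 SS the median was -0.23, and 2 members had an unadjusted p under 0.05, both lower, against 3.56% of all genes (1.17% lower). With all libraries, cortical glutamatergic markers had a median of -0.61 in this contrast, with 4 of 6 lower at an unadjusted p under 0.05 and 1 past the adjusted threshold (edgeR). They summed to 137 to 156 TMM-scaled CPM in D2 SS, against 116 to 788 in D1 SS. With receptor density as a covariate the median was -0.115, and again 2 members were lower at such a p, against 6.75% of all genes (2.27% lower). DESeq2 called 50 members with all libraries, when 27.5% of all genes with an adjusted p were called, and edgeR with DESeq2's size factors called 27, when 19.2% of all genes were. Rpl10a had 5.08, 5.91 and 11.8 TMM-scaled CPM in D2 SS, against 4.51, 12 and 88.2 in D1 SS, and 4 of 8 D1 libraries lay above all D2 libraries. Its remaining groups had 3.77, 10.5 and 17.3 in D2 MM, 3.37, 10.2 and 14.7 in D2 SM, 5.77, 12.2 and 25.8 in D1 MS and 3.27, 13.7 and 28.4 in D1 SM.

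**Figure D5:**
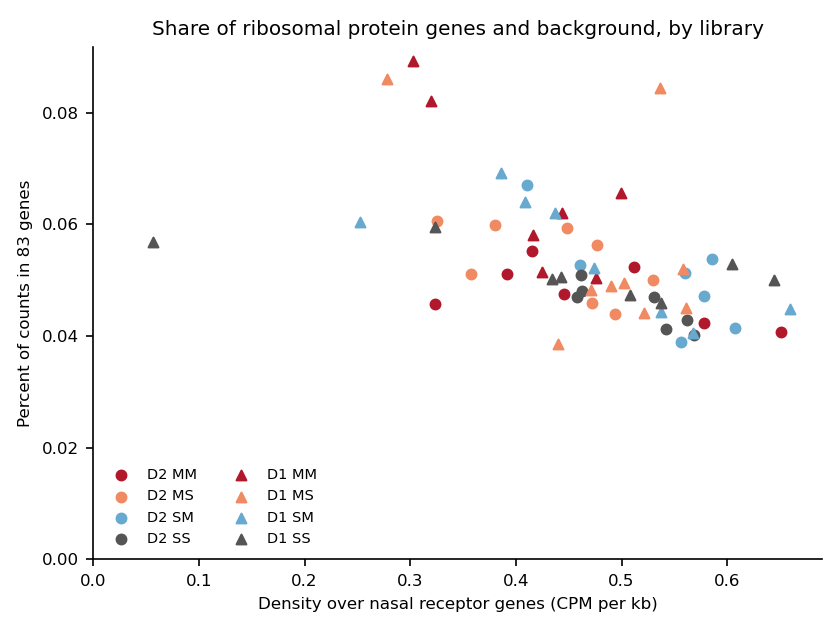
The share of each library's counts in the 83 genes (y axis, percent) against its density over nasal receptor genes (x axis, CPM per kb), with D2 as circles and D1 as triangles, coloured by treatment. Shares run from 0.0386 to 0.0893%, the 4 highest are D1 MM and D1 MS libraries, and replicate 1 of D1 SS lies alone at 0.057 CPM per kb with an ordinary share of 0.0569%.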

How the data were processed

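Total RNA from nuclei sorted by fluorescence gave 61 libraries, prepared with a stranded kit for low inputs per the labels' protocols. Per the submitters' processing notes, reads were counted with featureCounts on mm10 and analysed with DESeq2, while for the aligner, strand setting and reads with several matches the settings were not given in the sources used here. Raw counts per gene, as the authors deposited them, were tested. FPKM values, also deposited by the authors, served only to recover gene length (equal to the whole gene span of GENCODE M21 for 54753 of 55072 identifiers, relative tolerance 1e-06). Of 55401 identifiers, 54349 matched M21 with version and 55141 without.

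Tests used edgeR 4.0.16 under R 4.3.3 (TMM, filterByExpr by group, robust quasi-likelihood, two-sided, Benjamini-Hochberg over all genes tested, threshold 0.05): 41083 genes in 32 D1 libraries, 41125 in 29 D2 libraries and 42870 jointly, with biological coefficients of variation of 0.28, 0.154 and 0.231. CPM per kb divides CPM by gene span in kb. Times background divides that by the density over 1464 receptor genes. Copies were found with blastn, and sequences come from RefSeq.

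Named genes are the 5 members with the smallest p where none was called, a set fixed by role (Rpl10a, Rpsa, the stalk proteins, Rpl41, Rps6, Rps14, Rpl3, Rpl5, Rpl11 and parents with paralogues), and the 5 highest and 5 lowest by level. Results of a few of these genes are not reported here. Members and lists were chosen with earlier results of these data known. Alternatives were DESeq2 1.42.0, DESeq2's size factors, no filter, a replicate block, receptor density as a covariate and libraries left out. Precision by counting is lowest for low members: means per library ran from 13.7 to 513 counts.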

Additional observations from a re-analysis of the deposited data

Results flagged for a closer look

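A value was set aside for a closer look where the highest or lowest library of a group lay far from the others by Dixon's criterion. Of 112 sets of values tested (11 members, the members' mean and share of counts, and the receptor density, in each of 8 groups), 17 values were found. For normally distributed values chance gives about 1 in 20. The sets of a group share their libraries and are not independent, so the count of 17 cannot be set against that rate.

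Replicate 1 of D1 SS held 12 of them. Its member mean was 3.78 on the log2 scale, against 2.22 to 2.81 in the other 7 libraries. On TMM-scaled CPM, Rpl10a had 88.2 (others 4.51 to 25.3), Rps3 72.2 (16.1 to 31.9), Rpsa 51.6 (10.6 to 27.3), Rpl3 44.6 (14.8 to 23.3) and Rpl8 20.7 (4.38 to 8.63). Rpl32 had 16.9, Rpl9 15.7, Rps6 15.5, Rpl41 11.4, Rpl22l1 10.4 and Rpl28 8.70, each above all other libraries of its group. Before TMM scaling its member mean was 2.53 and the members held 0.0569% of its counts, which are ordinary values for the group.

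Replicate 2 of D1 MS had the lowest receptor density of its group, 0.278 CPM per kb (others 0.439 to 0.561), and the highest Rpl10a (25.8 TMM-scaled CPM, others 5.77 to 13.3), Rpl9 (12.5, others 4.27 to 7.49) and Rpl28 (7.82, others 2.64 to 4.41). In replicate 7 of D2 MM, Rpl22l1 had 1.09 TMM-scaled CPM, below the 2.03 to 2.45 of the other libraries. The causes of these values were not tested.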

How the results depend on the processing

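In D2 MS against SS, the count of members called was 0 in edgeR, 38 with DESeq2 (12 members had no adjusted p, and 27.2% of genes with one were called) and 39 with the replicate block (20.9% of genes), and 0 to 44 when single libraries were left out, an alternative chosen after seeing the data. The median log2 fold change was 0.331 to 0.440 with single libraries left out. In D2 against D1 within SS, 27 members were called with DESeq2's size factors (19.2% of genes) and 50 with DESeq2 (27.5%), and over the mean of the 4 treatments 1 was called with DESeq2 (0.385%). With receptor density as a covariate the median of the D1 difference between challenge responses was 0.056 and that of D2 against D1 in SS was -0.115. The sign of the members' median in D1 MS and SM against SS changed without replicate 1 of D1 SS and with the covariate, and that of D1 MM against SS was -0.021 with DESeq2. With the covariate the median of D2 MM against SM changed sign. In the other alternatives 91 counts of calls stayed at 0. Of the medians, 97 moved by less than the spread between libraries (SD 0.354), and the sign changes above are among these. That SD is larger than several of the medians themselves, such as -0.107 in D1 MS against SS and 0.158 in D2 SM against SS. The count of 97 therefore does not show that the medians were stable. Members at 2 times background numbered 71, and 79 at 1.5 times, 55 at 3 times and 68 without replicate 1 of D1 SS. For same-numbered libraries of a cell type, deviations from the group means had correlations of -0.883 to 0.931 (median 0.0432, over 87 pairs). The median was 0.00816 over 611 other pairs of a cell type. Across cell types the median was 0.127 over 115 same-numbered pairs (-0.859 to 0.910, 60 over 0.1), against 0.004 over 813 other pairs (375 over 0.1). Since not every same-numbered pair was over 0.1, the numbers were not taken to pair libraries. This rule is hard to meet with so many pairs, and its outcome does not show that same-numbered libraries are unrelated. Low counts limit the paralogues most: Rpl36al had 6 to 27 counts per library.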
